A study of Saccharomyces cerevisiae with 6 samples.

Results

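The central domain of 18S rRNA, the RNA of the small ribosomal subunit, was examined as it occurs within the 35S pre-rRNA of Saccharomyces cerevisiae, together with the expansion segment ES6. Its members are the 520 nucleotides at 18S positions 621 to 1140, which are positions 1321 to 1840 of the deposited 35S transcript, chosen by position alone. They are 520 of the 1800 nucleotides of 18S and of the 6858 nucleotides of the transcript, whose gene is named RDN37-1 in the deposited annotation. The files name no genome build, so no chromosome coordinates are given.

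Pre-ribosomal particles were purified through TAP-tagged Mrd1 and their RNA was probed with 1M7, in a study of how U3 snoRNA and pre-rRNA refold when Mrd1 is altered. Per the labels, 6 libraries formed 3 groups of 2. Libraries of the mrd1-deltaRDB5 strain treated with 1M7, and of the same strain treated with the solvent DMSO, came from BY4741 carrying both pGAL-HA-MRD1::URA3 and mrd1-deltaRDB5-TAP::K.I.TRP1, in which the mutant protein carried the TAP tag and the intact gene stood behind a galactose promoter. Libraries of the Erb1-depleted strain treated with 1M7 came from BY4741 carrying MRD1-TAP::URA3 and GAL::3HA-ERB1::KAN, in which ERB1 stood behind the galactose promoter and the tagged Mrd1 was intact. All groups share the BY4741 background and growth at 30 ºC in glucose or galactose and raffinose medium, and the medium of each sample is not stated. The labels give no DMSO library of the Erb1-depleted strain. Every strain carried 1 of the changes, so what belongs to the Mrd1 change and what to Erb1 depletion cannot be told apart.

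1M7 reacts with the 2′-hydroxyl of nucleotides that move freely, and the adducts halt reverse transcription, so high reactivity marks a nucleotide that is not held in a stable structure. In the mature small subunit the central domain forms the platform and carries ES6, a eukaryotic insertion that lies on the outer face of the subunit. The loops of helices 23 and 24 line the mRNA channel, and helix 27 stands near the decoding centre. The strand after helix 27 pairs in the mature subunit with the 5′ end of 18S in the central pseudoknot, a pairing that U3 snoRNA holds off in early particles. Erb1 is a large-subunit assembly factor, and Mrd1 is an RNA-binding protein of the early small-subunit precursor.

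The deposited sheet gave each nucleotide 1 raw reactivity score, 1 normalized score and 1 posterior probability of modification per strain. Modified nucleotides are those whose posterior reached 0.95 or more. The libraries of a strain were not told apart, and read numbers were not among the values, so depth is unknown and no difference below could be set against the spread between replicates. All 520 nucleotides had every value. The span was laid out in 13 windows of 40 nt, grouped into its start (window 1), the stretch that holds ES6 (windows 2 to 6, positions 661 to 860), the platform helices h22 to h24 (windows 7 to 10, positions 861 to 1020) and h25 to h28 (windows 11 to 13, positions 1021 to 1140). The deposited annotation does not mark helices, so these bounds are approximate. The label h25 to h28 is used only as a name for windows 11 to 13. The letters AAUUGAC, searched for as the strand after h27, were not found in the span. The stretch is therefore not shown to reach the last helix in its label.

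The stretches on which the results turn are given here 5′ to 3′ as in the deposited sequence. In the first group, capitals mark nucleotides called different between the strains by the rule explained further on; these are the windows with the most calls.
Window 1, positions 621 to 660: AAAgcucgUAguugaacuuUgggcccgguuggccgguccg
Window 4, positions 741 to 780: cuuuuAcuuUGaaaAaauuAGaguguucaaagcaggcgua
Window 10, positions 981 to 1020: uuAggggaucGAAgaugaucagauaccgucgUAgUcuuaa
In the second group, capitals mark nucleotides modified in both strains, and the windows shown hold the most reactive end of the ES6 stretch and the 5′ strand of helix 27.
Window 6, positions 821 to 860: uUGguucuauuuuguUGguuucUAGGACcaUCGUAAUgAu
Window 13, positions 1101 to 1140: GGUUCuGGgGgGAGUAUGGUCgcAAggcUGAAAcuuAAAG
The last stretch holds the loop of helix 23, and its capitals mark the 3 nucleotides modified in either strain.
Window 8, positions 901 to 940: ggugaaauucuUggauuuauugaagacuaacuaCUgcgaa

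More of the central domain than of the transcript was modified, mostly at the same nucleotides in both strains. In mrd1-deltaRDB5 particles 133 of 520 nucleotides were modified (25.6%, Wilson 95% interval 22 to 29.5), and in Erb1-depleted particles 157 were (30.2%, 26.4 to 34.3). Such intervals take nucleotides to be independent and hold no library-to-library spread. Over the whole transcript the modified share was 18.5% in mrd1-deltaRDB5 and 21.1% in Erb1-depleted particles, and over the rest of 18S it was 20.7% in mrd1-deltaRDB5 and 23.8% in Erb1-depleted particles. The share in the central domain was thus above both in each strain, but it was uneven along the span. In mrd1-deltaRDB5 it was 46.7% in h25 to h28, 23% in the ES6 stretch, 20% in the start and 14.4% in the platform. In Erb1-depleted particles it was 50.0% in h25 to h28, 27.5% in the ES6 stretch, 22.5% in the start and 20.6% in the platform. The platform was thus below both shares, and h25 to h28 stood far above them.

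The modified nucleotides of the central domain had lower scores than those elsewhere in 18S. Their median normalized score was 0.623 in mrd1-deltaRDB5 and 0.580 in Erb1-depleted particles, against 0.867 in mrd1-deltaRDB5 and 0.797 in Erb1-depleted particles in the rest of 18S. The mean over all 520 nucleotides was 0.227 in mrd1-deltaRDB5 (SD over nucleotides 0.404) and 0.210 in Erb1-depleted particles (SD 0.349), and in the rest of 18S it was 0.317 in mrd1-deltaRDB5 and 0.308 in Erb1-depleted particles. The domain thus had a higher share of modified nucleotides than the rest of 18S and a lower mean reactivity. The median over the span was 0 in both strains, because the authors' normalized score sets negative raw scores to 0, which concerned 301 nucleotides of the mrd1-deltaRDB5 profile and 296 of the Erb1-depleted profile. Nucleotides modified by their posterior but with a score of 0 numbered 3 in mrd1-deltaRDB5 and 2 in Erb1-depleted particles.

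**Figure D1:**
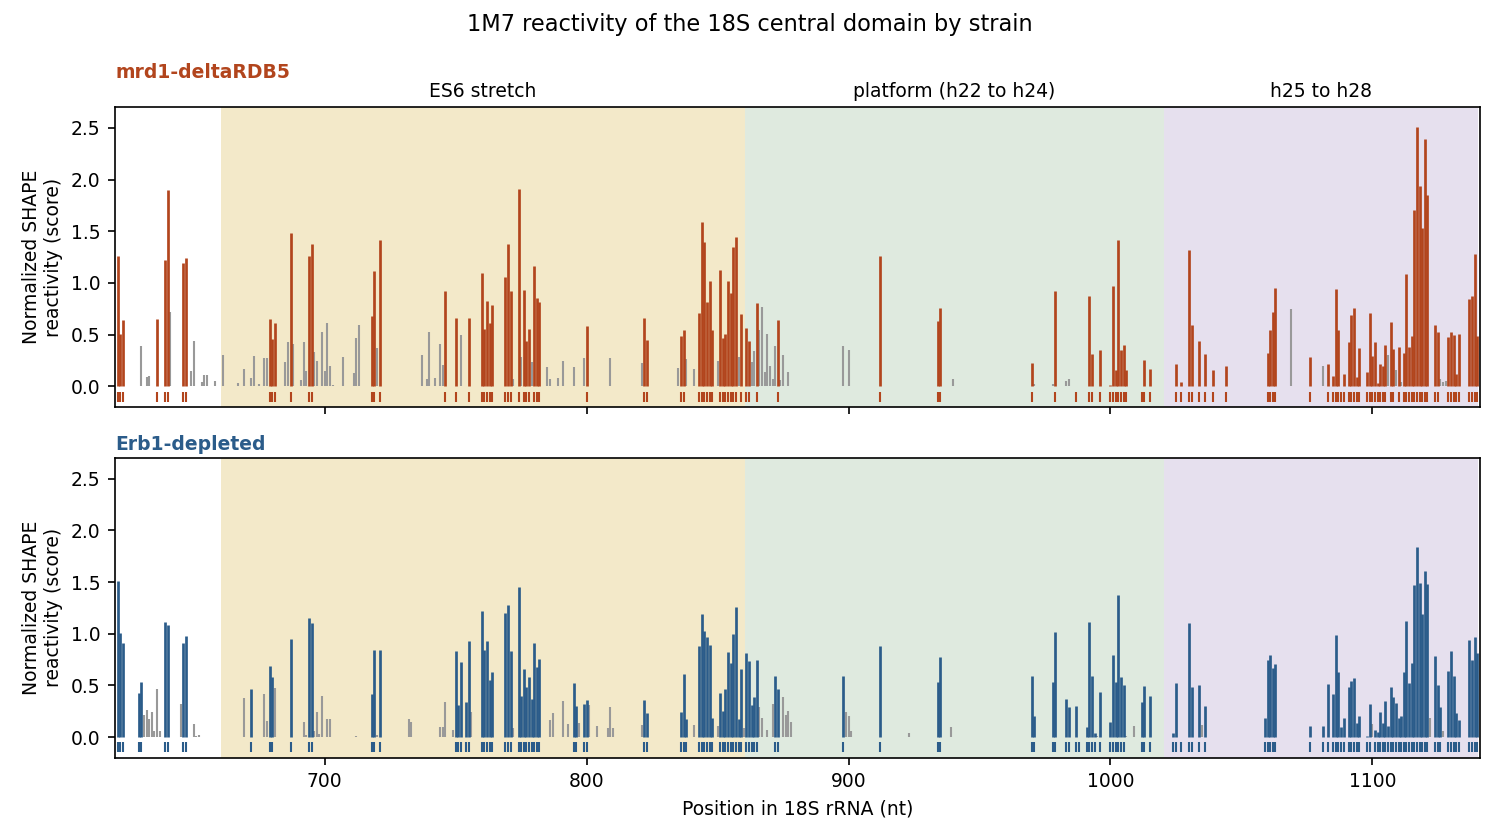
Normalized SHAPE reactivity (score, y axis) of each nucleotide of the central domain by position in 18S rRNA (x axis), in mrd1-deltaRDB5 (top) and Erb1-depleted particles (bottom). Coloured lines and the ticks under the axis are modified nucleotides (133 in mrd1-deltaRDB5 and 157 in Erb1-depleted particles), grey lines are the others; both profiles peak at position 1117, with 2.51 in mrd1-deltaRDB5 and 1.84 in Erb1-depleted particles.

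The profiles of the strains overlapped closely. In both strains the same 126 nucleotides were modified, which is 94.7% of those of mrd1-deltaRDB5 and 80.3% of those of Erb1-depleted particles, while in the rest of 18S the shared nucleotides were 79.6% of the mrd1-deltaRDB5 list and 69.4% of the Erb1-depleted list. Between the strains, raw scores correlated with a Pearson r of 0.917 across the 520 nucleotides, 0.883 across the rest of 18S and 0.863 across the rest of the transcript. These correlations are descriptions across nucleotides of 1 RNA, which share sequence context and overlap with their neighbours. Only 7 nucleotides were modified in mrd1-deltaRDB5 particles alone (A636, U681, A746, C1006, A1039, U1044 and G1100), and 31 in Erb1-depleted particles alone. Those 31 comprised 12 adenosines, 11 guanosines, 8 uridines and 0 cytidines. Their median normalized score was 0.0771 in mrd1-deltaRDB5 and 0.312 in Erb1-depleted particles, though A752 reached 0.731 in Erb1-depleted particles, and 4 of the 31 had the higher normalized score in mrd1-deltaRDB5. In neither strain were 356 nucleotides modified.

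At the threshold, the posteriors left few nucleotides in between. In mrd1-deltaRDB5 particles 17 nucleotides had a posterior between 0.05 and 0.95, with G1083 (0.971) just inside the threshold and G872 (0.947) just outside. In Erb1-depleted particles 10 did, with G1111 (0.954) inside and A791 (0.914) outside. At the bounds of the span, A620 just before it scored 1.38 in mrd1-deltaRDB5 and 1.48 in Erb1-depleted particles, close to A621 just inside, with 1.26 in mrd1-deltaRDB5 and 1.51 in Erb1-depleted particles. G1141, just after the span, scored 0.564 in mrd1-deltaRDB5 and 0.890 in Erb1-depleted particles and was modified in both. Reactive stretches thus ran on across both bounds.

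The start of the span and the ES6 stretch alternated reactive clusters with long silent runs. In the start of the span, 8 of 40 nucleotides were modified in mrd1-deltaRDB5 and 9 in Erb1-depleted particles, led by A621 and by U640, which scored 1.90 in mrd1-deltaRDB5 and 1.09 in Erb1-depleted particles. In the ES6 stretch 46 of 200 nucleotides (23%) were modified in mrd1-deltaRDB5 and 55 (27.5%) in Erb1-depleted particles. Most of them lay in windows 4 and 6. Window 4 held 16 in mrd1-deltaRDB5 and 20 in Erb1-depleted particles, and window 6 held 18 in mrd1-deltaRDB5 and 20 in Erb1-depleted particles. Windows 3 and 5 between them held 3 each in mrd1-deltaRDB5, against 3 and 6 in Erb1-depleted particles. A run of 24 nucleotides from 722 to 745 was modified in neither strain.

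Of the 10 most reactive modified nucleotides of each strain, spaced at least 5 nt apart, 6 lay in the ES6 stretch in both lists, and all 20 entries were modified in both strains. That stretch makes up 200 of the 520 nucleotides. The spacing also left out strongly reactive neighbours of U1117 in helix 27, described below, so the count depends on it. A774 scored 1.90 in mrd1-deltaRDB5 and 1.45 in Erb1-depleted particles. A844 scored 1.59 in mrd1-deltaRDB5 and 1.19 in Erb1-depleted particles. U857 scored 1.44 in mrd1-deltaRDB5 and 1.25 in Erb1-depleted particles. These 3 were higher in mrd1-deltaRDB5 by normalized score, while their standardized differences (mrd1-deltaRDB5 minus Erb1-depleted, on smoothed raw scores, in SD of the transcript) were −0.22 at A774, −0.01 at A844 and 0.16 at U857. A769 nearby scored 1.06 in mrd1-deltaRDB5 and 1.20 in Erb1-depleted particles, and A760 scored 1.10 in mrd1-deltaRDB5 and 1.22 in Erb1-depleted particles. The remaining ES6 entries were G687, U695 and U721 in the mrd1-deltaRDB5 list and U694 in the Erb1-depleted list; U694 scored 1.26 in mrd1-deltaRDB5 and 1.15 in Erb1-depleted particles, and U695 beside it 1.38 in mrd1-deltaRDB5 and 1.10 in Erb1-depleted particles.

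The 3′ end of ES6 held 2 clusters in window 6 that were modified in both strains. The run 843 to 848 averaged 1.01 in mrd1-deltaRDB5 and 0.856 in Erb1-depleted particles, and the run 851 to 857 averaged 0.973 in mrd1-deltaRDB5 and 0.706 in Erb1-depleted particles. Within the second run the gap was widest at U851, with 1.13 in mrd1-deltaRDB5 and 0.427 in Erb1-depleted particles, and narrowest at G853, with 0.506 in mrd1-deltaRDB5 and 0.466 in Erb1-depleted particles. All 7 of its nucleotides were higher in mrd1-deltaRDB5 by normalized score, and none of them was called.

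**Figure D2:**
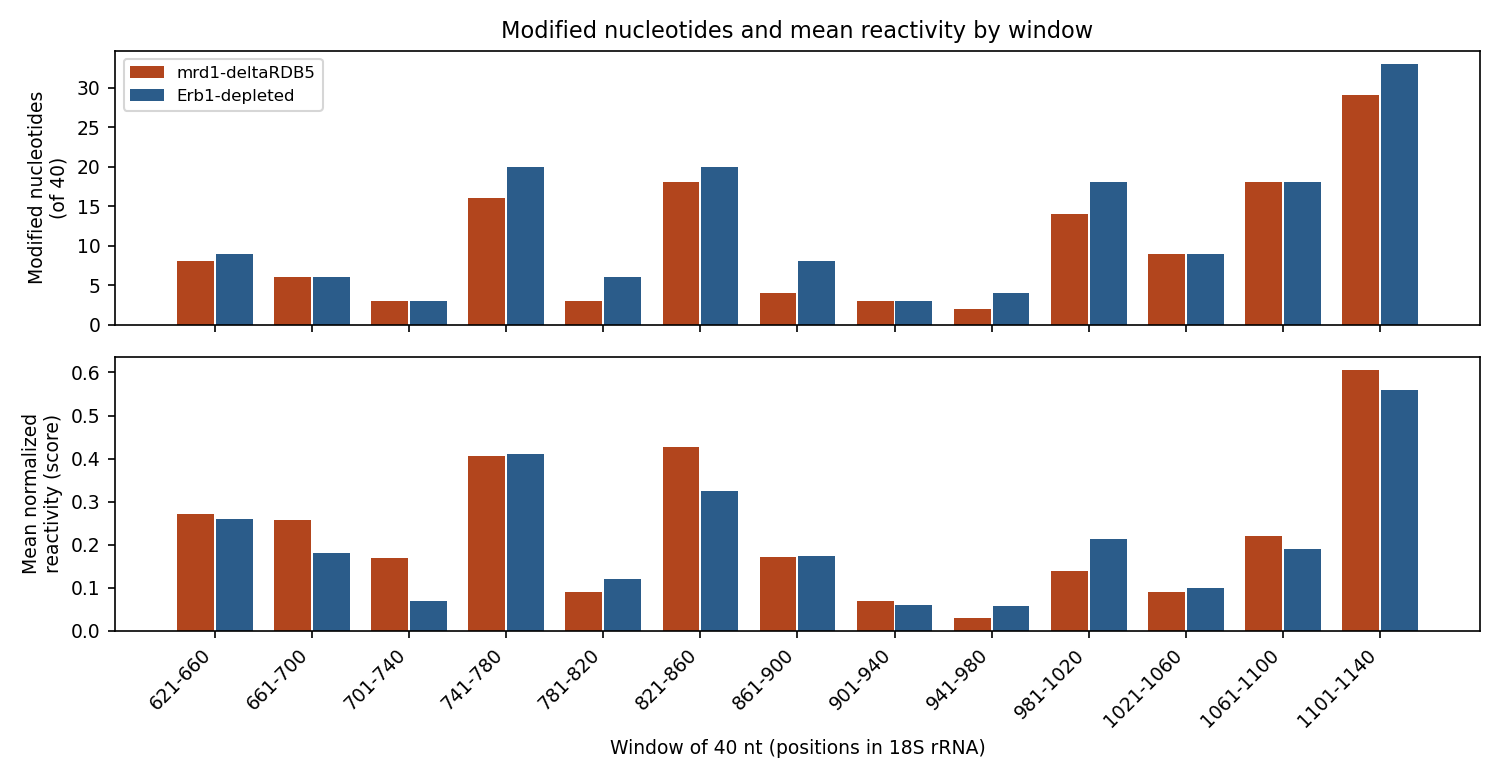
Modified nucleotides of 40 (top) and mean normalized reactivity (score, bottom) in the 13 windows along the central domain, with a bar for mrd1-deltaRDB5 (left) and for Erb1-depleted particles (right). The last window, 1101-1140, held the most, with 29 modified nucleotides in mrd1-deltaRDB5 and 33 in Erb1-depleted particles, and the windows from 861 to 980 held 2 to 4 in mrd1-deltaRDB5 and 3 to 8 in Erb1-depleted particles.

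The platform helices were the least reactive segment. In h22 to h24, 23 of 160 nucleotides (14.4%) were modified in mrd1-deltaRDB5 and 33 (20.6%) in Erb1-depleted particles, and the mean normalized score was 0.102 in mrd1-deltaRDB5 and 0.126 in Erb1-depleted particles. The longest silent run of the whole span lay here, with 34 nucleotides from 936 to 969 modified in neither strain. It averaged 0.00217 in mrd1-deltaRDB5 and 0.00296 in Erb1-depleted particles. Runs 874 to 897 (24 nt) and 913 to 933 (21 nt) were also modified in neither strain.

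The loop letters of helix 23 held no modified nucleotide in either strain. With 5 nt on either side, the stretch around the h23 loop GUGAAAU at 902 to 908 had 1 modified nucleotide of 17 in mrd1-deltaRDB5 and 2 in Erb1-depleted particles, and a mean score of 0.119 in mrd1-deltaRDB5 and 0.116 in Erb1-depleted particles. The nucleotide modified in both was U912, which scored 1.27 in mrd1-deltaRDB5 and 0.885 in Erb1-depleted particles, 4 nt after the loop. The stretch around GCGAAAG of h23a at 936 to 942 had 2 modified nucleotides in each strain, C934 and U935 before the loop, with a mean score of 0.0862 in mrd1-deltaRDB5 and 0.0830 in Erb1-depleted particles. Neither stretch held a called difference.

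The loop of helix 24 held the most reactive nucleotide of the platform stretch in each strain, though it was not the only reactive run there. Its run 1000 to 1005 averaged 0.551 in mrd1-deltaRDB5 and 0.657 in Erb1-depleted particles. The run 861 to 865 averaged 0.478 in mrd1-deltaRDB5 and 0.599 in Erb1-depleted particles, and was modified throughout in the latter. Of the 17 nucleotides around CAGAUAC at 1000 to 1006, 8 were modified in mrd1-deltaRDB5 and 7 in Erb1-depleted particles. A1003 led with 1.41 in mrd1-deltaRDB5 and 1.38 in Erb1-depleted particles, and A1001 scored 0.967 in mrd1-deltaRDB5 and 0.798 in Erb1-depleted particles. By normalized score the widest gaps of the loop were at G1002 and U1004: G1002 scored 0.159 in mrd1-deltaRDB5 and 0.530 in Erb1-depleted particles, and U1004 scored 0.352 in mrd1-deltaRDB5 and 0.586 in Erb1-depleted particles. A1005 scored 0.399 in mrd1-deltaRDB5 and 0.506 in Erb1-depleted particles, and C1006 went the other way, with 0.161 in mrd1-deltaRDB5 and 0.0137 in Erb1-depleted particles. By smoothed raw scores the lowest standardized difference of the loop was at A1003, with −1.04. The mean standardized difference of the 17 nucleotides was −0.60, and none of them was called.

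The h25 to h28 stretch was the most modified segment, with 56 of 120 nucleotides (46.7%) in mrd1-deltaRDB5 and 60 (50.0%) in Erb1-depleted particles. Its mean normalized score was 0.306 in mrd1-deltaRDB5 and 0.283 in Erb1-depleted particles. In the rest of 18S these means were 0.317 and 0.308, so the stretch stood out by modified share and not by mean reactivity. Its modified nucleotides had a median score of 0.483 in mrd1-deltaRDB5 and 0.505 in Erb1-depleted particles, against 0.867 and 0.797 in the rest of 18S. The modified share climbed along the stretch in both strains. It went from 9 of 40 in window 11 in each strain, through 18 in window 12 in each, to 29 in mrd1-deltaRDB5 and 33 in Erb1-depleted particles in window 13. In Erb1-depleted particles the 21 nucleotides from 1101 to 1121 were modified without a break, and in mrd1-deltaRDB5 U1106, G1109 and G1111 among them were not. The G-rich part of this run scored below its 3′ end: G1102 had 0.0310 in mrd1-deltaRDB5 and 0.0487 in Erb1-depleted particles, and G1108 had 0.360 in mrd1-deltaRDB5 and 0.389 in Erb1-depleted particles.

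The strongest cluster of the central domain was the 5′ strand of helix 27. The 10 nucleotides 1112 to 1121, capitals in the window 13 sequence, were modified in both strains and averaged 1.42 in mrd1-deltaRDB5 and 1.21 in Erb1-depleted particles. U1117 had the highest score of the span in each strain, 2.51 in mrd1-deltaRDB5 and 1.84 in Erb1-depleted particles. U1120 was next in each strain, with 2.39 in mrd1-deltaRDB5 and 1.60 in Erb1-depleted particles. Also in this cluster, G1118 scored 1.94 in mrd1-deltaRDB5 and 1.49 in Erb1-depleted particles. In the mature subunit this strand is paired within helix 27, by homology with the bacterial rRNA, whereas here it held the most reactive nucleotides in both strains. Directly after it the scores were low: G1122 scored 0 in mrd1-deltaRDB5 and 0.188 in Erb1-depleted particles, and C1123 scored 0 in both. The loop adenosines A1124, with 0.594 in mrd1-deltaRDB5 and 0.785 in Erb1-depleted particles, and A1125, with 0.529 in mrd1-deltaRDB5 and 0.505 in Erb1-depleted particles, were modified again. The letters AAUUGAC searched for as the strand after helix 27 were not found in the span.

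**Figure D3:**
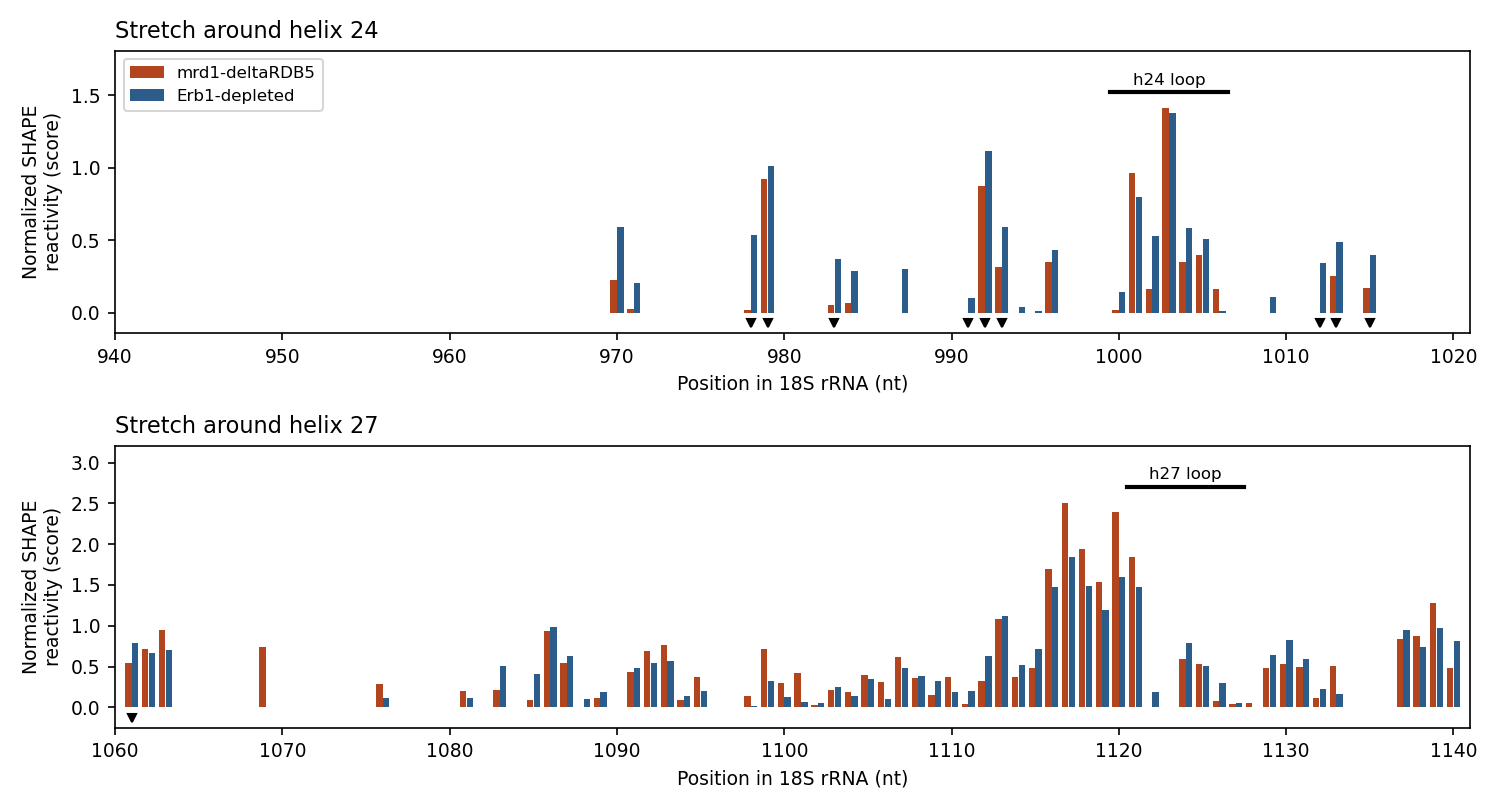
Normalized SHAPE reactivity (score) per nucleotide around helix 24 (positions 941 to 1020, top) and helix 27 (positions 1061 to 1140, bottom), with a bar for mrd1-deltaRDB5 (left) and Erb1-depleted particles (right) at each position in 18S rRNA. Black lines mark the landmark letters and black triangles under the axis the called nucleotides; A1003 reached 1.41 in mrd1-deltaRDB5 and 1.38 in Erb1-depleted particles, and the cluster 1112 to 1121 averaged 1.42 in mrd1-deltaRDB5 and 1.21 in Erb1-depleted particles.

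By base, adenosines led in the central domain, and guanosines, uridines and cytidines were each modified more often than in the rest of 18S. Of 136 adenosines 38.2% were modified in mrd1-deltaRDB5 and 44.9% in Erb1-depleted particles, of 158 uridines 27.2% in mrd1-deltaRDB5 and 31.0% in Erb1-depleted particles, and of 91 cytidines 11% in mrd1-deltaRDB5 and 9.89% in Erb1-depleted particles. Of 135 guanosines 20.7% were modified in mrd1-deltaRDB5 (Wilson 95% interval 14.8 to 28.3) and 28.1% in Erb1-depleted particles (21.2 to 36.3). In the rest of 18S the guanosine share was 10.8% in mrd1-deltaRDB5 (7.87 to 14.7) and 17.6% in Erb1-depleted particles (13.8 to 22.1), so that the intervals did not overlap in mrd1-deltaRDB5 and overlapped in Erb1-depleted particles. The modified guanosines were not spread evenly, and window 13 held a cluster of them, as the capitals of its sequence show. The guanosine share without that window was not computed. Adenosines made up 39.1% of modified nucleotides of the span in mrd1-deltaRDB5 and 38.9% in Erb1-depleted particles, against 54.0% in mrd1-deltaRDB5 and 49.7% in Erb1-depleted particles in the rest of 18S.

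A fold of the 520 nucleotides predicted from sequence alone separated modified from unmodified nucleotides in part. RNAfold left 190 nucleotides unpaired, of which 36.3% were modified in mrd1-deltaRDB5 (29.8 to 43.4) and 43.2% in Erb1-depleted particles (36.3 to 50.3). Of the 330 paired nucleotides, 19.4% were modified in mrd1-deltaRDB5 (15.5 to 24) and 22.7% in Erb1-depleted particles (18.5 to 27.5). The intervals of unpaired and paired nucleotides did not overlap in either strain. They too take nucleotides as independent, so this is a description and not a test. In the h25 to h28 stretch nucleotides of both kinds were often modified: 52.7% of unpaired nucleotides in mrd1-deltaRDB5 and 61.8% in Erb1-depleted particles were modified, and so were 41.5% of paired ones in mrd1-deltaRDB5 and 40% in Erb1-depleted particles. The fold knows nothing of proteins, U3 or the rest of the transcript, and its pairs were not compared with those of the mature subunit.

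**Figure D4:**
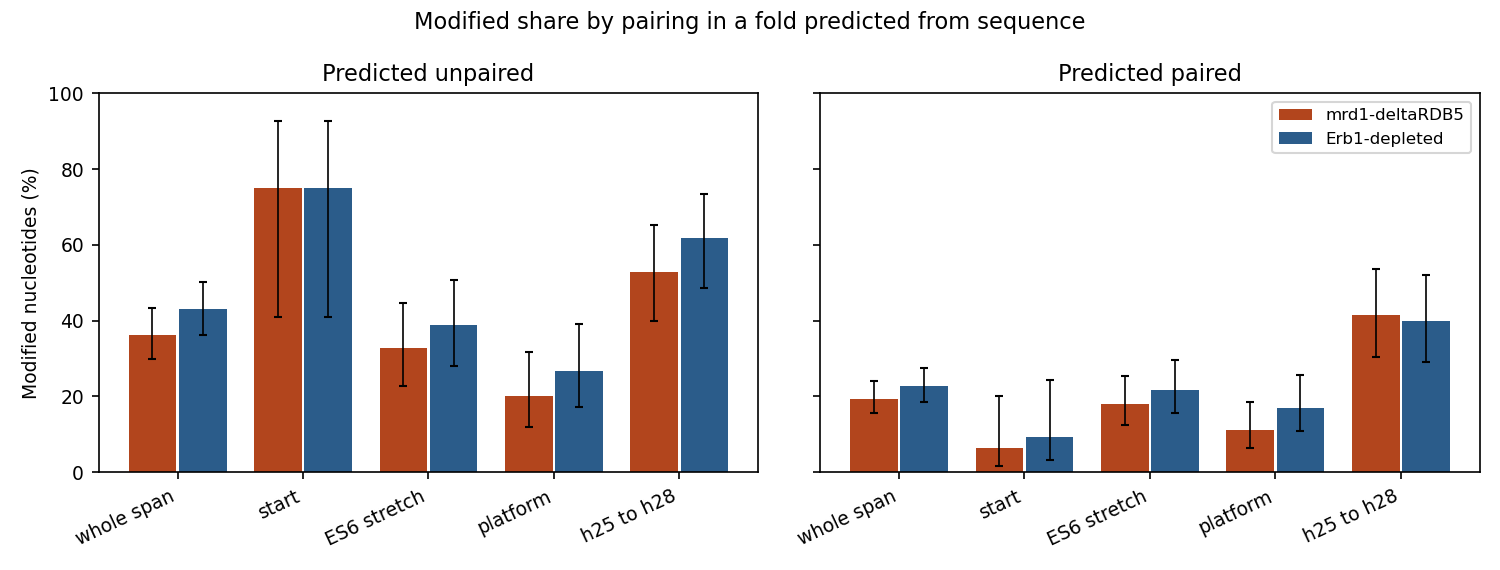
Modified nucleotides (%) among those predicted unpaired (left) and paired (right) in the minimum free energy fold, for the whole span and its segments, with a bar for mrd1-deltaRDB5 (left) and Erb1-depleted particles (right) and Wilson 95% intervals over nucleotides as error bars. Over the whole span 36.3% of unpaired nucleotides were modified in mrd1-deltaRDB5 and 43.2% in Erb1-depleted particles, against 19.4% and 22.7% of paired ones in mrd1-deltaRDB5 and Erb1-depleted particles.

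Of 8 bases of the central domain that carry a modification in mature 18S, 0 were modified by 1M7 in mrd1-deltaRDB5 and 2 in Erb1-depleted particles. All 8 letters matched the deposited sequence. A 2′-O-methyl group replaces the hydroxyl that 1M7 attacks, and pseudouridine is an isomer of uridine. The pair above the threshold in Erb1-depleted particles were Am796, with 0 in mrd1-deltaRDB5 and 0.298 in Erb1-depleted particles, and Gm1126, with 0.0746 in mrd1-deltaRDB5 and 0.294 in Erb1-depleted particles, both sites of 2′-O-methylation. Am974, Cm1007, Psi759, Psi766 and Psi999 scored 0 in both strains, and Psi632 scored 0.0896 in mrd1-deltaRDB5 and 0.259 in Erb1-depleted particles without reaching the threshold. The standardized difference was below 0 at all 8 sites, between −1.16 and −0.10, and none was called. Over the span 25.6% of nucleotides were modified in mrd1-deltaRDB5 and 30.2% in Erb1-depleted particles, and 288 of 520 standardized differences were below 0. With only 8 sites, a departure from these shares was not tested. Whether these bases carried their modification in the purified particles was not measured.

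Differences were called on raw scores after smoothing across 3 neighbouring nt. A difference had to reach 1 SD of all smoothed differences of the transcript, with a Z-factor above 0, at no fewer than 3 nucleotides of a window of 5, and calls were counted where the nucleotide was modified in at least 1 strain. The standardized difference is mrd1-deltaRDB5 minus Erb1-depleted in units of that SD. Because the raw scores are multiplied by 5.21 in mrd1-deltaRDB5 and by 4.35 in Erb1-depleted particles to give the normalized ones, a nucleotide can be higher in mrd1-deltaRDB5 by normalized score and not by raw score.

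In the central domain 28 nucleotides were called, at shares close to those of the transcript by this rule. Of the 520 nucleotides 4 (0.769%) were called higher in mrd1-deltaRDB5, against 0.81% of the transcript. Called lower in mrd1-deltaRDB5, that is higher in Erb1-depleted particles, were 24 (4.62%), against 5.15% of the transcript. Without the condition on modification 60 were called higher in mrd1-deltaRDB5 (11.5%), against 13.7% of the transcript, and 37 higher in Erb1-depleted particles (7.12%), against 11.5% of the transcript. With negative scores set to 0 before differencing, 18 were called higher in mrd1-deltaRDB5 (3.46%, against 2.97% of the transcript) and 9 lower (1.73%, against 4.14% of the transcript). With a running median taken out 17 were called lower (3.27%, against 6.33% of the transcript). At a threshold of 2 SD none was called in either direction, against 0.0612% of the transcript higher and 0.566% lower. The share called lower in mrd1-deltaRDB5 was thus near that of the transcript by the calling rule as given. It was below the transcript's in these settings, without the condition on modification, and without smoothing (3.08%, against 4.26%). It was above the transcript's with each strain's own factor (4.62%, against 3.9%), with equal SD (4.42%, against 3.64%) and after quantile normalization (4.62%, against 3.59%). Its position relative to the transcript therefore depended on the scaling.

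The 4 nucleotides called higher in mrd1-deltaRDB5 were U640 and 3 in the ES6 stretch, each on its own. U640 scored 1.90 in mrd1-deltaRDB5 and 1.09 in Erb1-depleted particles, a standardized difference of 1.33. G687 scored 1.48 in mrd1-deltaRDB5 and 0.949 in Erb1-depleted particles, a standardized difference of 1.67. U721 scored 1.42 in mrd1-deltaRDB5 and 0.844 in Erb1-depleted particles, a standardized difference of 1.02. These 3 were modified in both strains and strongly reactive in each, whereas A746 was modified in mrd1-deltaRDB5 alone, with 0.924 in mrd1-deltaRDB5 and 0.336 in Erb1-depleted particles and a standardized difference of 1.09.

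The 24 nucleotides called lower in mrd1-deltaRDB5 were spread over 12 runs and had standardized differences between −1.70 and −1.04. They comprised 14 adenosines, 7 uridines, 3 guanosines and 0 cytidines, and 16 of them were predicted unpaired. Modified in both strains were 16, and in Erb1-depleted particles alone 8. Their median normalized score was 0.320 in mrd1-deltaRDB5 and 0.563 in Erb1-depleted particles, and all 24 were lower in mrd1-deltaRDB5 by normalized score as well.

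Of these runs 3 were 3 nt long. The run 621 to 623 opens the span, where A622 scored 0.508 in mrd1-deltaRDB5 and 1.00 in Erb1-depleted particles and A623 scored 0.643 in mrd1-deltaRDB5 and 0.911 in Erb1-depleted particles. The run 991 to 993 lies 5′ of the h24 loop, where A992 scored 0.877 in mrd1-deltaRDB5 and 1.11 in Erb1-depleted particles, A993 scored 0.315 in mrd1-deltaRDB5 and 0.589 in Erb1-depleted particles, and G991 scored 0 in mrd1-deltaRDB5 and 0.102 in Erb1-depleted particles. In the run 1059 to 1061, U1060 scored 0.326 in mrd1-deltaRDB5 and 0.747 in Erb1-depleted particles, A1061 scored 0.547 in mrd1-deltaRDB5 and 0.792 in Erb1-depleted particles, and U1059 scored 0 in mrd1-deltaRDB5 and 0.185 in Erb1-depleted particles. In each run the nucleotides kept some reactivity in at least 1 strain and none was a strong site in one strain and silent in the other.

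The lowest standardized difference among called nucleotides, −1.70, was at U629, which scored 0 in mrd1-deltaRDB5 and 0.423 in Erb1-depleted particles. In window 4 of the ES6 stretch, 5 nucleotides were called lower in mrd1-deltaRDB5. Among them G751 scored 0 in mrd1-deltaRDB5 and 0.310 in Erb1-depleted particles, and A755 scored 0.660 in mrd1-deltaRDB5 and 0.926 in Erb1-depleted particles. All 5 lie within 12 nt of each other, next to A746, which was called the other way. In the h25 to h28 stretch A1025 was called, with 0.215 in mrd1-deltaRDB5 and 0.528 in Erb1-depleted particles.

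The 40 nucleotides from 981 to 1020 at the 3′ side of the platform (window 10) were the part of the domain most uniformly lower in mrd1-deltaRDB5. The standardized difference was below 0 at 39 of 40 nucleotides with a mean of −0.82, and 7 were called, all lower in mrd1-deltaRDB5. Beside the run 991 to 993 these were A983, with 0.0530 in mrd1-deltaRDB5 and 0.371 in Erb1-depleted particles, and U1012, A1013 and U1015 after the loop, of which U1012 scored 0 in mrd1-deltaRDB5 and 0.341 in Erb1-depleted particles. By its posterior U1012 was nevertheless modified in both strains. Just before the window, A978 scored 0.0205 in mrd1-deltaRDB5 and 0.536 in Erb1-depleted particles, and was called too. A979 beside it was also called, with a standardized difference of −1.40. Its scores were close, with 0.921 in mrd1-deltaRDB5 and 1.01 in Erb1-depleted particles. Modified in the window were 14 nucleotides in mrd1-deltaRDB5 and 18 in Erb1-depleted particles. The shift held for nucleotides modified in either strain (mean −0.87) and in neither (mean −0.78). The mean kept its sign in all 6 other scalings tried, but the 7 calls were 0 when negative scores were set to 0 before differencing and 0 when a running median was taken out.

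The ES6 stretch leaned the other way. Its mean standardized difference was 0.29, with 117 nucleotides higher and 83 lower in mrd1-deltaRDB5. The windows differed: window 2 had a mean of 0.58, window 3 of 0.86, with 35 of 40 nucleotides higher in mrd1-deltaRDB5, and window 6 of 0.43, whereas windows 4 and 5 had −0.22 and −0.19. The sign turned in window 2 (−0.11) with a running median taken out, which left the stretch at 0.13, and in window 4 (0.0445) with negatives at 0. Much of this lay at nucleotides without a modification call: the mean was 0.46 at those modified in neither strain and −0.12 at those modified in either. In window 3, with 3 modified nucleotides in each strain, the mean raw score of nucleotides modified in neither strain was −0.0393 in mrd1-deltaRDB5 and −0.0968 in Erb1-depleted particles. Without window 3 the mean of the ES6 stretch was 0.15. At the 44 nucleotides of the stretch modified in both strains, the mean normalized score was 0.909 in mrd1-deltaRDB5 and 0.770 in Erb1-depleted particles. By normalized score 31 of the 44 were higher in mrd1-deltaRDB5. That score carries the strain's factor, 5.21 in mrd1-deltaRDB5 and 4.35 in Erb1-depleted particles. By raw score the 57 nucleotides modified in either strain averaged 0.146 in mrd1-deltaRDB5 and 0.156 in Erb1-depleted particles. Of their standardized differences 33 were below 0 and 24 above, so the lean did not hold at modified nucleotides on the raw scale.

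The platform stretch had a mean standardized difference of −0.30, and at its 22 nucleotides modified in both strains the mean normalized score was 0.523 in mrd1-deltaRDB5 and 0.644 in Erb1-depleted particles, with 16 of the 22 lower in mrd1-deltaRDB5. That mean ranged from −0.61 to −0.0368 over the other scalings. The h25 to h28 stretch stood near 0 with a mean of −0.01, whose sign depended on the scaling, and of its 53 nucleotides modified in both strains 27 scored higher and 26 lower in mrd1-deltaRDB5. With raw scores most of the platform's shift came from window 10, since windows 7, 8 and 9 had means of −0.12, 0.02 and −0.27, each of which changed sign under at least 1 other scaling. Over the whole span the mean was 0.03 (−0.0706 to 0.14 over the other scalings), and it was −0.32 at nucleotides modified in either strain and 0.19 at the others. In the rest of 18S these means were −0.44 and 0.09, so the same split was present outside the central domain.

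**Figure D5:**
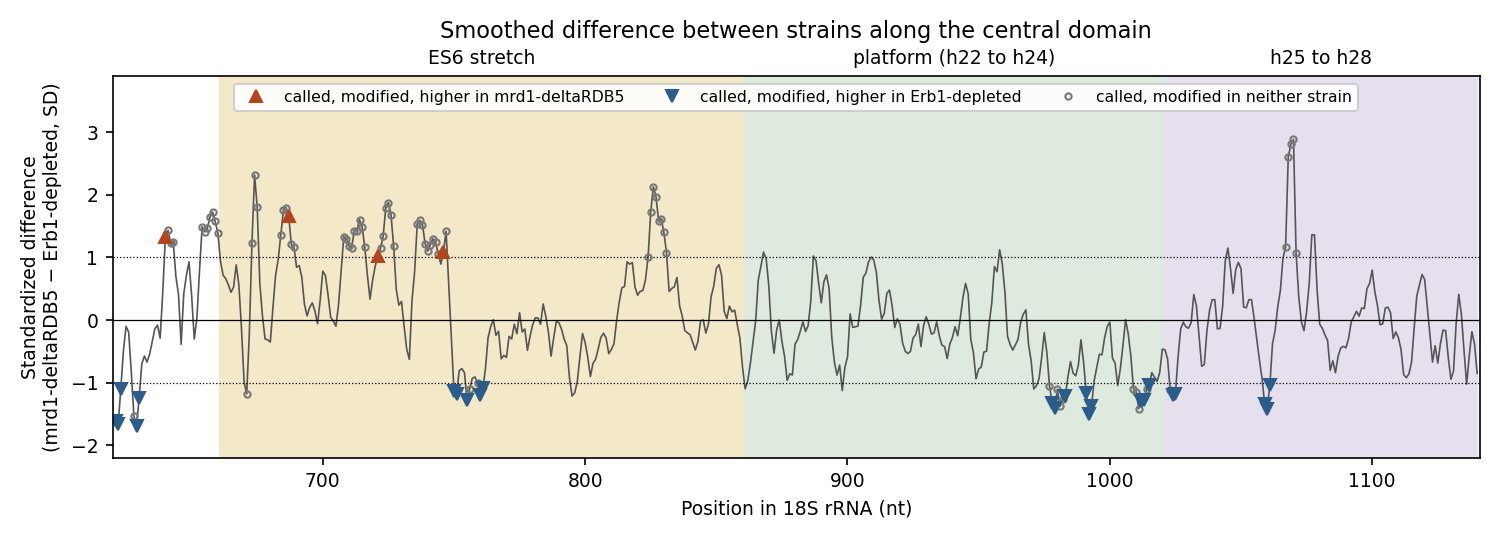
Standardized difference (mrd1-deltaRDB5 minus Erb1-depleted, in SD of the transcript's smoothed differences, y axis) along the central domain (position in 18S rRNA, x axis), with dotted lines at 1 and −1. Triangles up are the 4 nucleotides called higher in mrd1-deltaRDB5, triangles down the 24 called lower, and open circles those called but modified in neither strain; the highest value, 2.89, is at position 1070 among open circles, and values from 981 to 1020 lie below 0 at 39 of 40 positions.

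The widest differences of the span lay at nucleotides modified in neither strain. The highest standardized difference was 2.89 at C1070, in a run of 5 nucleotides from 1067 to 1071 called higher in mrd1-deltaRDB5 without the condition on modification, with a mean of 2.10. Within it A1069 scored 0.744 in mrd1-deltaRDB5 and 0 in Erb1-depleted particles, but its posterior was under the threshold in both. C1070 scored 0 in both, with raw scores of −0.366 in mrd1-deltaRDB5 and −0.471 in Erb1-depleted particles. Runs of the same kind in the ES6 stretch were 708 to 716 and 736 to 744, of 9 nt each, and 824 to 831, of 8 nt, where every normalized score was 0 in both strains. In the run 824 to 831 a difference between negative scores alone was called.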

How the data were processed

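Per the labels, 6 libraries of Mrd1-purified 35S pre-rRNA were made by random-hexamer reverse transcription with SuperScript III and adapter ligation with CircLigase II. Novoalign was the aligner, per the submitters' processing notes, with no version stated. The values are scores deposited by the authors, per the file headers: raw SHAPE reactivity, reactivity normalized from 2% to 8%, BUM_HMM posteriors, and the smoothed scores, Z-factors and standardized differences of deltaSHAPE, with 1 column per strain. The derivation of raw scores and the control used for the Erb1-depleted strain are not given in the sources used here. In the values, raw scores times a strain's factor, with negatives at 0, give the normalized ones. Region bounds came from the deposited annotation. It and the sequence were checked against the score sheet, and 0 letters differed.

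The calling rule was recomputed over the transcript with Python 3.11.15, numpy 2.4.6 and pandas 2.3.3, and 0 of its 1646 calls differed from the authors' deposited table. It was also tested on simulated data. No test or p-value was computed, since each nucleotide has 1 value per strain. The span was folded with ViennaRNA 2.7.2 (minimum free energy −162.5 kcal/mol, and pairing probabilities with a limit of 0.5), Wilson intervals came from scipy 1.17.1, and figures from matplotlib 3.10.9. Nucleotides named were drawn from the 10 most reactive modified ones per strain and up to 10 largest called differences in each direction, at most 1 per 5 nt. Of these lists A1030, U639, U750 and U1024 are not described above. Also named are called runs of at least 3 nt, every nucleotide called higher in mrd1-deltaRDB5, landmark loops found by letters and bases modified in mature 18S. Nucleotides beside bounds and thresholds were added to these. Others in the clusters and windows described were named after their values were seen. Members, landmarks and lists were chosen with earlier results of these data known.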

Additional observations from a re-analysis of the deposited data

How the results depend on the processing

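No paired analysis was possible because the deposited columns pool the libraries of a strain, and leaving out a replicate was not possible for the same reason. Counts of modified nucleotides changed little with the posterior threshold. The 28 calls became 0 at 2 SD and 97 without the condition on modification. The 4 calls higher in mrd1-deltaRDB5 became 10 with each strain's own factor, 18 with negatives at 0, 10 with equal SD, 8 on quantiles, 0 at 2 SD and 60 without the condition. In the first 4 of these settings the span's share was 1.92%, 3.46%, 1.92% and 1.54%. The transcript's share rose too, from 0.81% to 1.45%, 2.97%, 1.54% and 1.39%. The 24 lower in mrd1-deltaRDB5 became 9 with negatives at 0, 0 at 2 SD and 37 without the condition. Of the 28, own factors, negatives at 0, equal SD, quantiles, a running median taken out and no smoothing shared 23, 12, 22, 23, 15 and 15, in the same direction. The 14 named differences kept their direction in those 6 settings, and 7 to 14 of them were called.

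Mean standardized differences depended on scale, so small ones have no settled direction. For the span, 0.03 became −0.0495 with own factors, 0.14 with negatives at 0, −0.0559 with the SDs made equal, −0.0706 on quantiles and 0.11 less the running median. The platform's −0.30 became −0.57, −0.0871, −0.59, −0.61 and −0.0368 in that order. With the running median taken out the start went to 0.41, ES6 to 0.13 and h25 to h28 to 0.16; h25 to h28 was 0.17 with negatives at 0 and −0.0426 after quantile normalization. ES6 without window 3 was 0.15. Windows that turned were 2 (−0.11), 9 (0.16) and 11 (0.18) with the running median taken out, 4 (0.0445), 7 (0.0339) and 13 (0.29) with negatives at 0, 8 with own factors (−0.29), equal SD (−0.32) and quantiles (−0.36), and 13 with the same 3 (0.0773, 0.10 and 0.0455). Window 10 ranged from −0.98 to −0.34. Mean raw scores were −0.0264 in mrd1-deltaRDB5 and −0.0283 in Erb1-depleted particles, where normalized means were 0.227 and 0.210. At nucleotides modified in both strains, normalized means differed by 0.139 in ES6, −0.12 in the platform, 0.0409 in h25 to h28 and 0.0638 in the start. These normalized means carry each strain's own factor, so their sign can differ from that on raw scores. The normalized score above 0, the fit without window 3 and the nucleotides modified in both strains were chosen after seeing the data. The cause of these shifts was not tested.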
